A study of Mus musculus with 6 samples.

Results

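Hlf, Mecom, Meis1, Gata2, Erg, Mllt3, Runx1, Tal1 and Lmo2 are 9 genes whose products hold the transcription program of blood-forming stem cells in place. They were found by symbol among the 17068 genes of the deposited tables, and all 9 were listed for all 11 clusters of cells. Droplet single-cell RNA sequencing had been run on haematopoietic stem cells (HSCs) sorted from bone marrow of Gfp-Lc3 mice, a genotype that carries a fluorescent tag on the autophagosome protein LC3 and that all samples shared. There were 6 libraries, 1 for each combination of age (young or old) and feeding (ad lib, a fast of 24 hours, or a fast of 24 hours followed by 24 hours of refeeding). The sources used here do not state how many mice stood behind a library, their ages in weeks or what drives the transgene. The tables pool the 6 libraries and set each cluster against all other cells, so neither age nor feeding could be compared and no value carries an error between animals. The clusters had been drawn on these same expression values, and what follows is therefore a description of levels without tests.

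The 22378 cells fell into 5 clusters of 3747 to 4904 cells (0 to 4), a cluster 5 of 1188 cells, and clusters 6 to 10 of 310, 267, 173, 112 and 10 cells. Counts per cell were not analysed here, so the depth behind a level is unknown, no counting interval is given, and small clusters are the least certain. The sort label was checked against markers. All 10 genes on the long-term HSC list, Cd34 included, were detected in every cluster. Their summed level was 8.79 (cluster 6) to 12.3 (cluster 10) counts per 10000. Summed levels of other lists were at most 0.0494 for mast cell or basophil, 0.442 for B cell and 0.976 for T or NK cell markers, the last in cluster 6. The erythroid sum was 13.9 in cluster 6 and 2.35 to 4.78 elsewhere, the granulocyte or monocyte sum 6.95 to 13.7, the megakaryocyte sum 2.74 to 4.55 and the cycling sum 1.05 to 2.53. On the granulocyte or monocyte list, Prtn3 had a log2 mean level of 3.07 over all cells. Cd68, Ly6c2 and Mpo of that list were at -4.50, -8.09 and -8.19. In cluster 0, 7 of 9 megakaryocyte markers were called higher and none lower by the rule given below. Of the 10 genes on the long-term HSC list, 3 were called lower there and 1, Cd34, higher. Cd34 counts here as a listed gene, and its rise is not read as a sign of long-term HSCs. Of all genes 2.4% were called higher and 6.62% lower in cluster 0. Endothelial markers, several of which HSCs also express, summed to 3.68 to 6.30, while the endothelial cadherin gene Cdh5 was at 0 in clusters 1, 5, 6, 7, 8 and 10.

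HSCs stay undifferentiated for life through a small network of DNA-binding proteins that occupy shared enhancers. Tal1, Gata2, Lmo2, Runx1 and Erg, with Fli1 and Lyl1, form a group called the heptad, in which Lmo2 bridges the bound factors without touching DNA itself. Hlf, Mecom and Meis1 act beside them to keep the cells quiescent and self-renewing, and Mllt3 is a chromatin reader that recruits elongation and histone methylation complexes to the genes of this program.

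Levels per cluster are given as counts per 10000, recovered from the deposited means, fold changes and cell numbers. A gene was called higher or lower where the authors' deposited table gave a log2 fold change of at least 0.5 in size with an adjusted p under 0.05, and the p served only as a filter on noise because it treats cells as replicates. Of the 99 pairs of a regulator and a cluster, 3 were called higher and 7 lower. The higher pairs were Mllt3 in cluster 2, Erg in cluster 4 and Meis1 in cluster 7. The lower pairs were Mllt3 and Mecom in cluster 0, Hlf, Mecom, Erg and Runx1 in cluster 6, and Mllt3 in cluster 8. Gata2, Tal1 and Lmo2 were called nowhere.

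For reading these counts, the share of all 17068 genes called lower in clusters 0, 6 and 8 was 6.62%, 26.2% and 19.5%. The share called higher in clusters 2, 4 and 7 was 3.02%, 0.387% and 1.84%. Many of those genes were rarely detected, whereas the 9 regulators were all well expressed. Among the 1548 genes with a mean level at or above that of Tal1, the lowest of the 9, the lower share in clusters 0, 6 and 8 was 1.81%, 14.9% and 3.29%. The higher share in clusters 2, 4 and 7 was 0.969%, 0.517% and 2.97%. These 1548 genes are called the abundant genes below.

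**Figure D1:**
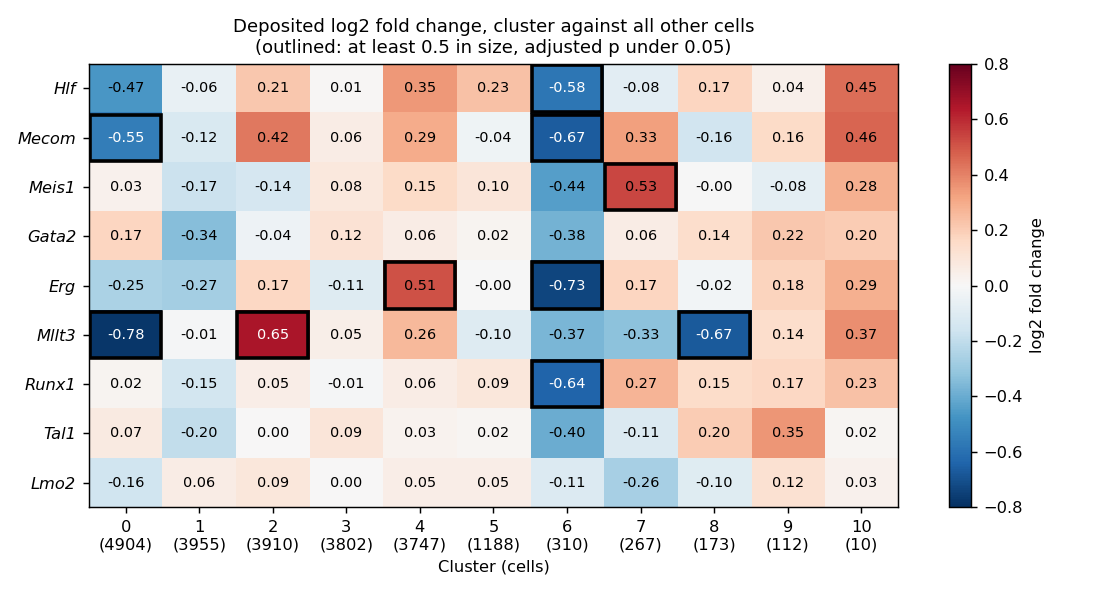
Log2 fold change of each regulator (rows) in each cluster against all other cells (columns, with the number of cells), from the authors' deposited tables, on a colour scale from -0.8 to 0.8. Outlined cells passed the size rule: 3 were higher, 7 were lower, and 4 of the 7 lower ones lay in cluster 6.

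Mllt3, the chromatin reader (chromosome 4, 87769925 to 88033407, GRCm38), varied most among the 9 over the large clusters. Its level in clusters 0 to 5 was 1.12, 1.71, 2.49, 1.77, 2.00 and 1.61 counts per 10000. In clusters 6 to 10 it stood at 1.34, 1.38, 1.09, 1.90 and 2.23. Clusters 8 and 0 were thus the low end and cluster 2 the high end. Cluster 2 held 2.22 times the level of cluster 0, a ratio at the 99.7th percentile of the abundant genes. This pair was chosen as the ends of Mllt3 among clusters 0 to 5, and all genes were ranked on it. Such a choice favours an extreme percentile. The same holds for the pair percentiles of Mecom, Hlf, Erg and Gata2 below. For clusters 0, 2 and 8 the authors' deposited tables gave log2 fold changes of -0.78, 0.65 and -0.67. In units of the standard deviation between single cells these differences were -0.54, 0.49 and -0.46. The nuclear RNA Malat1 stood at -0.41, 0.22 and -1.15 in the same clusters per the authors' deposited tables. Among the megakaryocyte markers 7, 0 and 0 of 9 were called higher and 0, 3 and 2 lower. Of all genes 2.4% and 3.02% were called higher in clusters 0 and 2. The shares called lower in clusters 0, 2 and 8 were 6.62%, 3.49% and 19.5%. In cluster 8 the marker Ppbp was undetected. The part of Malat1 and of these markers in the Mllt3 values was not tested.

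Mecom encodes the zinc finger protein EVI1, whose loss empties the stem cell pool (chromosome 3, 29951296 to 30509759). Its level ran from 1.01 in cluster 0 through 1.27 (cluster 1), 1.33 (cluster 5), 1.41 (cluster 3) and 1.62 (cluster 4) to 1.74 in cluster 2. Cluster 6 lay lower still at 0.865, and clusters 7, 8, 9 and 10 were at 1.71, 1.23, 1.52 and 1.88. Among the large clusters the low and high ends were therefore those of Mllt3. Cluster 2 exceeded cluster 0 by 1.73-fold, the 98.6th percentile of abundant genes. The authors' deposited tables gave Mecom -0.55 for cluster 0 (-0.42 standard deviations between cells) and 0.42 for cluster 2, and only the first passed the size rule.

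Hlf, a PAR bZIP factor used as a reporter of HSCs (chromosome 11, 90336535 to 90390917), was lowest among the large clusters in cluster 0 as well, at 2.94 counts per 10000. Clusters 1 to 5 were at 3.68, 4.29, 3.82, 4.64 and 4.42. The small clusters ranged from 2.56 (cluster 6) over 3.59 (cluster 7), 3.91 (cluster 9) and 4.28 (cluster 8) to 5.17 (cluster 10). Here cluster 4, not cluster 2, was the high end of the large clusters. Cluster 4 held 1.58 times the level of cluster 0, at the 98.7th percentile. The fold changes for clusters 0 and 4 in the authors' deposited tables, -0.47 and 0.35, stayed inside the size rule.

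Erg, an ETS factor needed for HSC self-renewal (chromosome 16, 95359169 to 95586600), set cluster 4 apart from the other large clusters. Its level was 0.911 there, against 0.594, 0.585, 0.751, 0.642 and 0.681 in clusters 0, 1, 2, 3 and 5. Clusters 6 to 10 were at 0.414, 0.770, 0.672, 0.772 and 0.832. Unlike Mllt3, Mecom and Hlf, Erg was about as low in cluster 1 as in cluster 0. Cluster 4 exceeded cluster 1 by 1.56-fold, the 99.7th percentile of abundant genes. The authors' deposited table put Erg at 0.51 in cluster 4, just past the size rule and 0.31 standard deviations between cells.

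Mllt3, Mecom, Hlf and Erg were the 4 regulators whose levels spread most over clusters 0 to 5. From the lowest to the highest cluster they spanned 1.15, 0.79, 0.66 and 0.64 on the log2 scale, at the 99.2nd, 97.1st, 95.0th and 94.8th percentiles of abundant genes, whose median span was 0.20. For these spans every gene was measured between its own ends, unlike the pair percentiles above. Gata2 spanned 0.42 (86.8th percentile), Meis1 0.27 (70.1st) and Tal1 0.24 (62.9th). Runx1 (0.21) and Lmo2 (0.20) were near the median of abundant genes. With the small clusters included (0 to 9) the spans of Mllt3, Erg, Mecom and Hlf lay at the 90.8th, 87.5th, 76.7th and 59.8th percentiles, and Meis1 (71.9th) and Runx1 (66.3rd) came above Hlf. Between cluster 0 and cluster 2 the same 4 genes stood on the side of cluster 2, by 2.22-fold, 1.73-fold, 1.46-fold and 1.26-fold, while Gata2 (0.892-fold), Meis1 (0.909-fold) and Tal1 (0.963-fold) were slightly higher in cluster 0. Lmo2 (1.15-fold, 87.2nd percentile) and Runx1 (1.02-fold) were also on the side of cluster 2. The 9 genes did not move as 1 block between these clusters.

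The promoter windows of those 4 genes are shown because their levels spread most over clusters 0 to 5. Each is the 250 bases before an annotated start, 5′ to 3′ on the gene's strand, from RefSeq (GRCm38.p6). Capitals mark the letters of a searched motif on either strand. For each gene the start farthest upstream is given. The data do not tell which start the cells used.
Hlf (chr11:90390918-90391167, minus strand): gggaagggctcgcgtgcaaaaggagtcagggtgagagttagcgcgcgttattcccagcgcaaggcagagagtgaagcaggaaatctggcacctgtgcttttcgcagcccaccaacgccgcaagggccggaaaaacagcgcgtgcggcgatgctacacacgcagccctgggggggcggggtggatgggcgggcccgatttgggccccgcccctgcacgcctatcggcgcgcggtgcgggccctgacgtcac
Mecom (chr3:30509760-30510009, minus strand): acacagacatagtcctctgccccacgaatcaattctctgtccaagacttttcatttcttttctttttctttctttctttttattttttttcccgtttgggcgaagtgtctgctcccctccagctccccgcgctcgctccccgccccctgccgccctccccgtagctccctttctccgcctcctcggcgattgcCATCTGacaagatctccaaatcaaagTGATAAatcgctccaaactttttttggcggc
Mllt3 (chr4:88033408-88033657, minus strand): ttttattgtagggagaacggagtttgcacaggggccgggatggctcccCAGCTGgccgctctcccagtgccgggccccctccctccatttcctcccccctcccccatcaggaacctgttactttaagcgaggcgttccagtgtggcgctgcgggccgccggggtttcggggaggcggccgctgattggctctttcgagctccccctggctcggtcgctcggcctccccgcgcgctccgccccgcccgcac
Erg (chr16:95586594-95586843, minus strand): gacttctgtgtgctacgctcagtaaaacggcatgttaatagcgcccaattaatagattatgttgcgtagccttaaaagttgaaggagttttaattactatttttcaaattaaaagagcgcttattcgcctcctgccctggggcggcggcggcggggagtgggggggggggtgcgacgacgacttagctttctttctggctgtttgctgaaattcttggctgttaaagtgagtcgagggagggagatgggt

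Motifs were searched on both strands. The letters were AGATAA, with the variants TGATAA as well as AGATAG, for GATA factors, and CCGGAAG, with the variants ACGGAAG as well as AGGAAG, for ETS factors. They were TGTGGT for RUNX, TGACAG for MEIS, CAGCTG with the variant CAGATG for E-boxes, and TTACGTAA with the variant TTATGTAA for PAR bZIP factors such as Hlf. GATA, ETS, RUNX, MEIS, E-box and PAR bZIP letters occur in 22.3%, 35.7%, 14%, 15.9%, 25.5% and 0.931% of the 32851 mouse promoter windows of this length. The Hlf window held none of them, the Mecom window 1 GATA motif and 1 E-box, the Mllt3 window 1 E-box, and the Erg window none. Of the windows at other starts, not printed, that of Mecom held 1 GATA and 1 MEIS motif, that of Mllt3 1 GATA, 1 MEIS and 1 E-box, and 1 of 2 for Erg 1 GATA, 1 ETS and 2 MEIS motifs. In base composition Hlf and Mllt3 resembled each other, with 26 and 23 CpG pairs and 67.2% and 69.2% G or C, against 14 and 50.8% for Mecom and 14 and 48.8% for Erg. The medians over all windows were 6 CpG pairs and 52.4%. RefSeq's table held 15 windows for 8 of the 9 genes. A match is a description of letters, not a bound site.

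**Figure D2:**
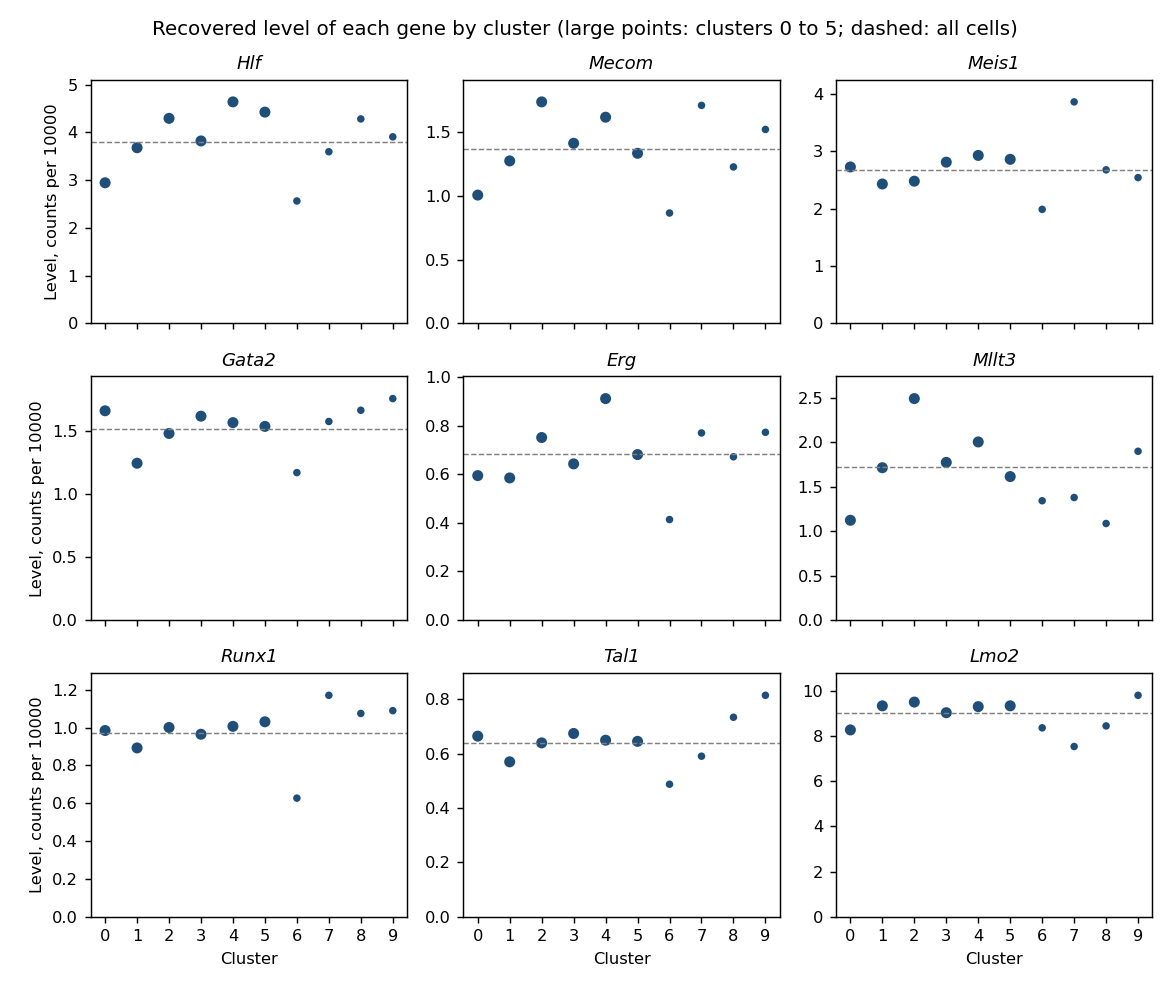
Recovered level of each regulator (counts per 10000, axes from 0 and separate for each gene) in clusters 0 to 9, with large points for clusters 0 to 5, which hold most cells, and a dashed line at the level over all cells. Mllt3, Mecom and Hlf are low in cluster 0 relative to clusters 2 and 4, and Erg peaks in cluster 4, while Lmo2 stays between 7.53 and 9.80.

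Meis1 and Runx1 differed less among the large clusters than between clusters 6 and 7. Meis1, a TALE homeodomain factor that partners HOX proteins (chromosome 11, 18880428 to 19019651), was at 2.72, 2.43, 2.48, 2.81, 2.92 and 2.86 counts per 10000 in clusters 0 to 5. Clusters 6 to 10 were at 1.98, 3.86, 2.67, 2.54 and 3.26. Cluster 7 stood clear of cluster 4, its next lower neighbour among clusters 0 to 9, by 0.40 on the log2 scale. The authors' deposited table gave Meis1 0.53 in cluster 7, past the size rule.

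Runx1, the factor needed for definitive blood to arise in the embryo (chromosome 16, 92601466 to 92826074), lay between 0.893 (cluster 1) and 1.03 (cluster 5) in the large clusters, with 0.985, 1.00, 0.965 and 1.01 in clusters 0, 2, 3 and 4. It was at 0.627 in cluster 6 and at 1.17, 1.07, 1.09 and 1.14 in clusters 7 to 10. Cluster 6 stood 0.51 (log2) below the next cluster. The authors' deposited table had Runx1 at -0.64 in cluster 6.

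Gata2, Tal1 and Lmo2, all members of the heptad, passed the size rule in no cluster. Gata2, a zinc finger factor that keeps HSCs quiescent (chromosome 6, 88193891 to 88207032), was at 1.66, 1.24, 1.48, 1.61, 1.56 and 1.53 in clusters 0 to 5 and at 1.17, 1.57, 1.66, 1.75 and 1.74 in clusters 6 to 10. Unlike Mllt3 and Mecom, it was high rather than low in cluster 0 and had its low end of the large clusters in cluster 1. Cluster 0 held 1.33 times the level of cluster 1, the 98.4th percentile of abundant genes for that pair. The pair was chosen as the ends of Gata2 among clusters 0 to 5. With every gene measured between its own ends there, Gata2 was at the 86.8th percentile. The authors' deposited table gave -0.34 in cluster 1, the 0.646th percentile of abundant genes there.

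Tal1, the basic helix-loop-helix factor also called SCL (chromosome 4, 115056426 to 115071755), was at 0.665, 0.570, 0.640, 0.674, 0.650 and 0.645 in clusters 0 to 5 and at 0.488, 0.591, 0.734, 0.815 and 0.646 in clusters 6 to 10. Its low end among the large clusters was cluster 1, as for Gata2. Lmo2, the bridging protein (chromosome 2, 103957903 to 103981878), was at 8.27, 9.33, 9.50, 9.03, 9.30 and 9.33 in clusters 0 to 5 and at 8.36, 7.53, 8.44, 9.80 and 9.24 in clusters 6 to 10. Its levels in clusters 0 to 9 spanned 0.38 on the log2 scale, the 3.81st percentile of abundant genes, so few abundant genes were as even.

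The order of the clusters differed between regulators. Cluster 6 was the lowest of clusters 0 to 9 for every gene but Mllt3 (cluster 8) and Lmo2 (cluster 7). The high end was cluster 4 for Hlf and Erg, cluster 2 for Mecom and Mllt3, cluster 7 for Meis1 and Runx1, and cluster 9 for Gata2, Tal1 and Lmo2. Most neighbours in these orders lay closer than 0.1 on the log2 scale. Of 9 neighbouring pairs per gene, gaps of 0.1 or more numbered 4 for Erg and Tal1, 3 for Hlf, Mecom, Mllt3 and Runx1, 2 for Meis1 and 1 for Gata2 and Lmo2. Without a spread between animals, no order of neighbours was tested.

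Seen by cluster, the 9 genes had median log2 fold changes of -0.16, -0.15, 0.09, 0.05, 0.15 and 0.02 for clusters 0 to 5 in the authors' deposited tables. Medians of the abundant genes in these clusters lay between -0.03 and 0.04. All 9 regulators were above 0 in cluster 4, and 8 of 9 were below 0 in cluster 1, where Lmo2 (0.06) was the exception. Of all genes 52.2% were above 0 in cluster 4 and 33.9% in cluster 1. In cluster 0 the values ran from -0.78 (Mllt3) to 0.17 (Gata2) in the authors' deposited table, the widest range among the large clusters.

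**Figure D3:**
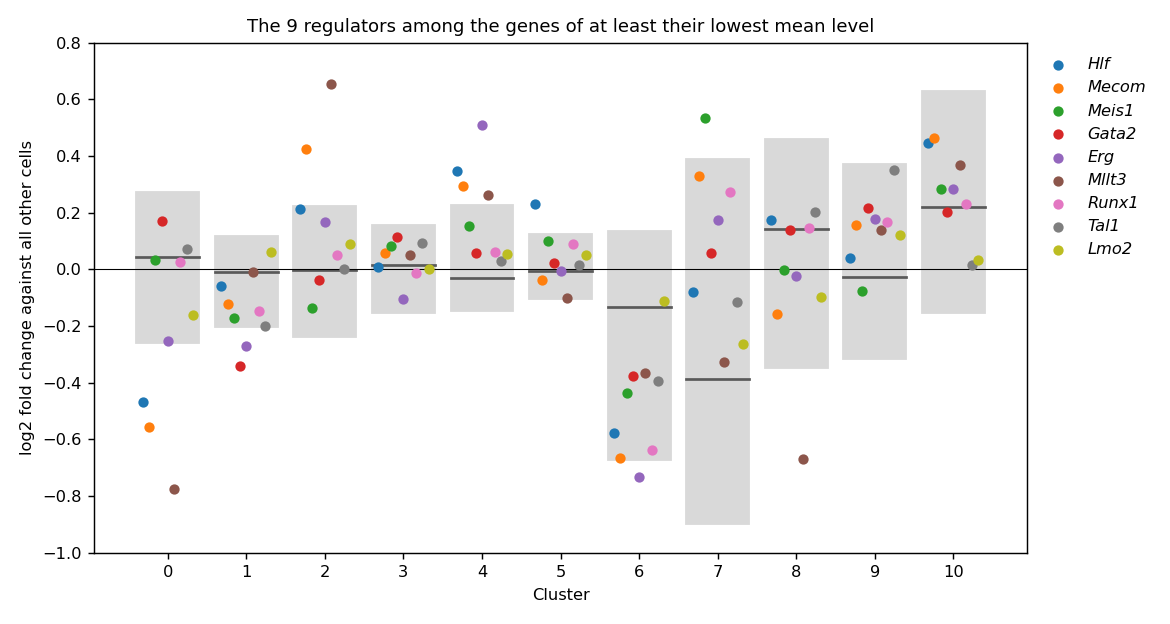
Log2 fold change of each regulator (coloured points) in each cluster against all other cells, with grey boxes from the 5th to the 95th percentile of the 1548 abundant genes and a line at their median. In cluster 0 Mllt3, Mecom and Hlf lie below the box, in cluster 2 Mllt3 and Mecom lie above it, and in clusters 6 and 7 the box itself is wide.

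In cluster 6 all 9 regulators were below 0, from -0.73 (Erg) to -0.11 (Lmo2) with a median of -0.44 in the authors' deposited table. The whole table was shifted there: the median was -0.32 over all genes and -0.13 over abundant genes. Cluster 6 also had lower mitochondrially encoded transcripts (median of 13 genes -0.74) and Malat1 (-0.69) in the authors' deposited table, beside the erythroid marker sum of 13.9, to which every erythroid marker but Car1 contributed a count. Their part in the lower levels of Hlf, Mecom, Erg and Runx1 was not tested.

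Cluster 7 was the reverse for several regulators. Mecom, Meis1, Runx1 and Erg were 1.98, 1.94, 1.87 and 1.86 times as high in cluster 7 as in cluster 6, whereas Mllt3 was nearly equal in both (1.03-fold) and Lmo2 was lower (0.901-fold). The mitochondrially encoded genes had a median of 1.17 in cluster 7 and Malat1 stood at 0.63 in the authors' deposited table. Abundant genes had a median of -0.39 there and 37.7% of them were called lower, but no regulator was. The part of the mitochondrial RNA in these values was not tested.

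Gene span, the length of a gene with its introns, moved with the fold change in those clusters. Over the 1522 abundant genes with a span in RefSeq, Spearman's rho between span and fold was -0.58 for cluster 6, 0.57 for cluster 7, 0.45 for cluster 4 and -0.40 for cluster 1. For clusters 0 and 2 it was -0.13 and 0.14. These are descriptions across genes that share cells and libraries. Hlf (54.4 kb), Meis1 (139 kb), Runx1 (225 kb), Erg (227 kb), Mllt3 (263 kb) and Mecom (558 kb) all fell in the longest of 5 span classes, from 40.7 to 857 kb. Lmo2 (24.0 kb) was in the next class, and Gata2 (13.1 kb) and Tal1 (15.3 kb) were in the middle one.

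**Figure D4:**
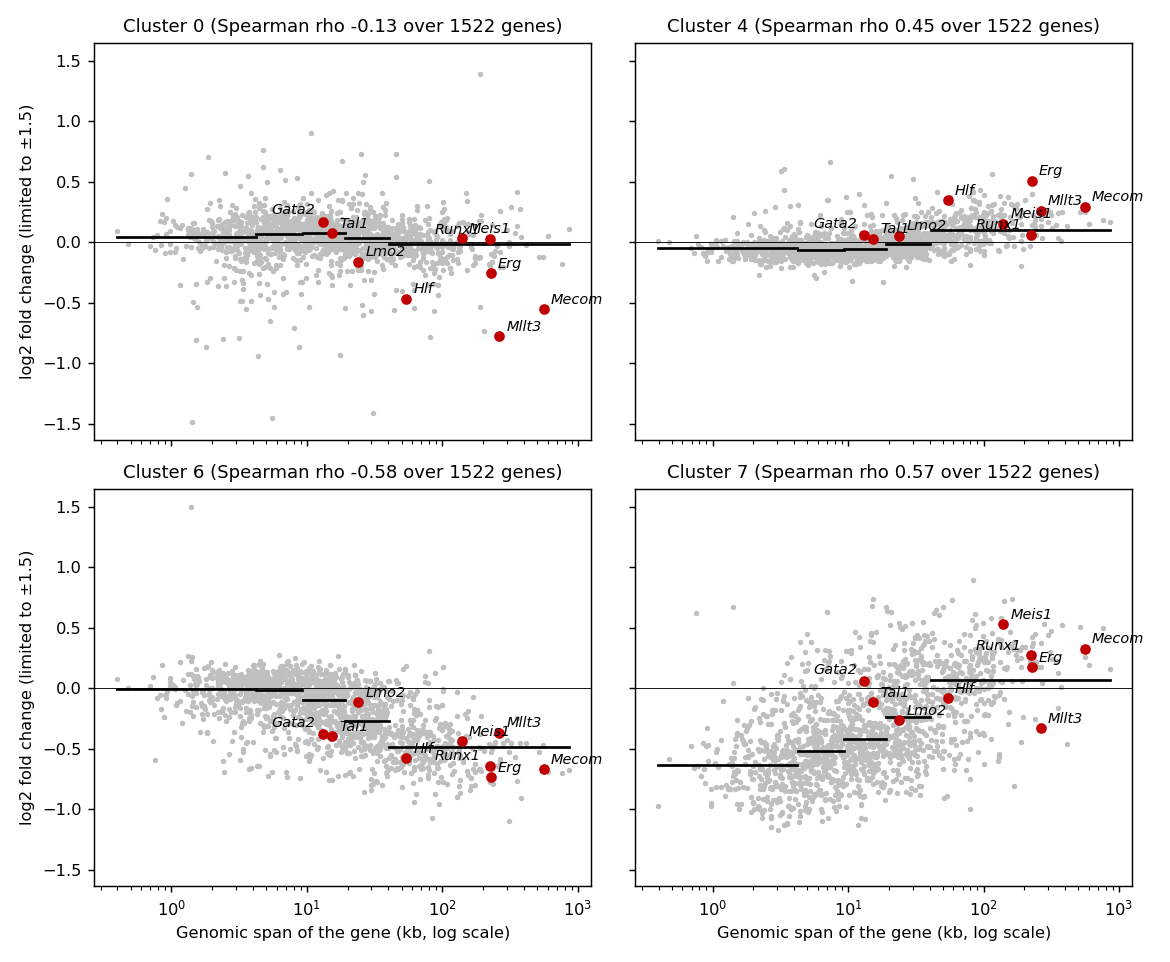
Log2 fold change (limited to 1.5 in size) against genomic span (kb, log scale) for 1522 abundant genes in clusters 0, 4, 6 and 7, with the 9 regulators in red and lines at the median of each of 5 span classes. In cluster 6 the long genes sit low and Hlf, Mecom, Erg and Runx1 lie among them, whereas in cluster 0 Mllt3 and Mecom lie well below genes of like span.

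Set against the median of genes of like span, some differences held their size and others shrank. Mllt3 kept most of its difference, at -0.76, 0.60 and -0.80 in clusters 0, 2 and 8, and so did Mecom in cluster 0 (-0.54). The cluster 6 values shrank to -0.09 for Hlf, -0.18 for Mecom, -0.25 for Erg and -0.16 for Runx1. Erg in cluster 4 came to 0.41 and Meis1 in cluster 7 to 0.46, both then inside the size rule. In cluster 7 the short gene Gata2 lay 0.48 above genes of its span, although its own deposited fold was 0.06 in the authors' deposited table. Between clusters 7 and 6, genes of the longest class had a median log2 ratio of 0.56. Mecom, Meis1, Runx1 and Erg were above it at 0.98, 0.96, 0.90 and 0.90. Hlf (0.49) and Mllt3 (0.04) were below it. Lmo2 was at -0.15 against 0.06 for its class, and Gata2 and Tal1 at 0.43 and 0.28 against -0.31. The alternative with span classes was chosen after seeing the data.

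The partners of the heptad were not called in the large clusters. Of 16 measured genes for other heptad members, cofactors and corepressors, none was called in clusters 0 to 5. Their median in those clusters was between -0.11 and 0.04 in the authors' deposited tables. Calls were also few among all genes, with 2.4% higher and 6.62% lower in cluster 0. The shares were 3.02% higher and 3.49% lower in cluster 2, and 0.387% higher in cluster 4. Among abundant genes 1.81% were lower in cluster 0, and 0.969% and 0.517% higher in clusters 2 and 4. The lack of calls is therefore not read as a trait of this list. In cluster 6, 5 were called lower: the lysine demethylase gene Kdm1a (-0.69), the ETS factor gene Fli1 (-0.68), the E-protein genes Tcf12 (-0.58) and Tcf4 (-0.57), and the corepressor gene Cbfa2t3 (-0.58) in the authors' deposited table. The list median there was -0.38, and 26.2% of all genes and 14.9% of abundant genes were called lower in this cluster. So the heptad genes other than Erg stayed within the size rule over the large clusters, Fli1 and Lyl1 included.

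Several paralogues of the regulators were called in clusters 0 and 2. Of 16 measured, 2 were called higher and 4 lower in cluster 0, where 2.4% of all genes were called higher and 6.62% lower. Cluster 2 had 1 higher and 2 lower, with 3.02% of all genes called higher and 3.49% lower. Runx3, a sister gene of Runx1, was at 1.30 and -1.45 for clusters 0 and 2 in the authors' deposited tables, while Runx1 was at 0.02 and 0.05. Meis2 ran the other way, with -0.90 and 0.71 for the same clusters, and Meis3 was at -0.78 for cluster 0, both from the authors' deposited tables. Gata1, the erythroid and megakaryocyte counterpart of Gata2, had a fold change of 2.74 for cluster 0 in the authors' deposited table. It was rare, with a log2 mean of -6.04, so few cells carry that fold. Meis2 was also scarce (log2 mean -4.22).

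Pbx4, a TALE homeodomain gene, was called higher in cluster 0 (0.56, the authors' deposited table). Of 15 genes for the elongation and Dot1l complexes that work with Mllt3, none was called in clusters 0 to 5. Of all genes 2.4% were called higher and 6.62% lower in cluster 0, and 3.02% and 3.49% in cluster 2. The lack of calls is therefore not read as a trait of these 15 genes. Their medians for clusters 0 and 2, -0.07 and 0.08 in the authors' deposited tables, had the sign of Mllt3 but were far smaller in size. For clusters 7 and 8 their medians were 0.21 and 0.05 where Mllt3 was at -0.33 and -0.67, of opposite sign, per the authors' deposited tables. Kmt2a, whose fusion with Mllt3 causes leukaemia, was at -0.74 (cluster 6), Dot1l at 0.68 (cluster 8) and the cyclin T gene Ccnt1 at 1.45 (cluster 9), per the authors' deposited tables.

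Among 22 other transcription regulators of HSCs, cluster 6 had 10 called lower, beside 26.2% of all genes and 14.9% of abundant genes, and cluster 9 had 3 called higher. Those 3 were Nr4a1 (4.56), Klf4 (2.62) and Egr1 (2.35) in the authors' deposited table, all immediate early genes. No member of the core set was called in cluster 9, where Tal1 was highest at 0.35 in the authors' deposited table. The share of all genes called higher in cluster 9 was 1.2%. Zbtb20 was at -1.19 in cluster 8, where Mllt3 was also called lower, in the authors' deposited table. Of 16 lineage regulators, 1 was called higher and 3 lower in cluster 0, among them Gfi1 at -1.34 and Cebpb at -0.81 in the authors' deposited table. The shares of all genes called higher and lower in cluster 0 were 2.4% and 6.62%.

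Genes known to depend on these regulators included both directions in the clusters where Mllt3 and Mecom differed. In cluster 0, 4 of 17 were called higher: Cdk6 (1.39), the integrin gene Itga2b (1.17), Cd34 (0.92) and the platelet factor gene Pf4 (0.79) in the authors' deposited table. Procr (-0.94), the endothelial protein C receptor gene that marks HSCs, and the cell cycle inhibitor gene Cdkn1c (-0.91) were called lower in the same cluster, also from the authors' deposited table. In cluster 2 the list gave 1 higher, Cdkn1c (0.92), and 3 lower, among them Cdk6 (-1.22), Itga2b (-1.07) and Cd34 (-0.81), in the authors' deposited table. Of all genes 2.4% were called higher and 6.62% lower in cluster 0, and 3.02% higher and 3.49% lower in cluster 2. Each list was written from general knowledge, and no list was tested for enrichment.

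Likeness of pattern was measured as Pearson's r of the deposited log2 fold changes over clusters 0 to 9 (10 points, which share libraries and the pooled comparison cells), against 8247 genes. Closest to Mecom were Camk2d and Fcho2 (both 0.97), to Mllt3 Cep164 and Zfp612 (both 0.94), to Hlf Lyst and Snx13 (both 0.93), and to Erg Ankhd1 and Smc5 (both 0.98). Gata2 was most like Nin and Ssr3 (both 0.93), Meis1 like Pds5a (0.97) and Lars2 (0.96), and Tal1 like Trim41 and Med16 (both 0.97). Lmo2 was nearest to B4gat1 (0.97) and Rfk (0.95), and Runx1 to Chd1l (0.99) and Rrbp1 (0.98). These are the highest values among 8247 genes. By ranks (Spearman), Gata2 with Nin fell to 0.67, and Lmo2 with Rfk and Runx1 with Chd1l to 0.77. Over clusters 0 to 5 alone, Runx1 fell to 0.87 with Chd1l and 0.77 with Rrbp1, and Tal1 to 0.83 with Trim41 and 0.81 with Med16. The other 29 of 36 recomputed values moved less. Runx1 had the most company, with 308 genes at 0.9 or above, and Hlf the least, with 7. The Runx1 fold was -0.64 in cluster 6, and the weight of that point was not tested. Within the set and over clusters 0 to 5 (6 points), r was 0.98 for Mecom with Mllt3 and 0.98 for Gata2 with Tal1, while Gata2 with Mllt3 was at -0.32 and Gata2 with Lmo2 at -0.57. Over clusters 0 to 9 the same 4 pairs were at 0.72, 0.89, -0.10 and -0.03, so the 2 negative values were nearer 0 with the small clusters included.

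Of the 2922 pathways in the deposited pathway tables, 13 named a regulator of this set, and in all 13 it was RUNX1. By their names, these sets cover genes that regulate RUNX1 or that it acts with or on, scored in the same cells. Their median log2 fold change was 0.07 for cluster 0, with 11 of 13 above 0, and -0.09 for cluster 1, with none above 0, per the authors' deposited tables. Over all pathways the medians were 0.02 and -0.03. In cluster 6 it was -0.39 with none above 0, beside a median of -0.21 over all pathways in the authors' deposited table. The set of tight junction genes regulated by RUNX1 had the largest value of the 13 in cluster 3, at 0.36, where the Runx1 gene itself was at -0.01, per the authors' deposited tables. For clusters 0 and 1 that set was at -0.20 and -0.18 and the Runx1 gene at 0.02 and -0.15, again per the authors' deposited tables.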

How the data were processed

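The 9 regulators, the gene lists and the size rule were chosen with earlier results of these data known. Scanpy and the mm10 build are named in the submitters' processing notes. The sources used here do not state the aligner, cell filters, doublet handling, clustering settings or test. For each of 11 clusters the authors deposited a gene table with the log2 mean level (counts scaled to 10000 per cell), the log2 fold change of the cluster against all other cells, a p-value and an adjusted p-value. The deposited adjusted p-value equals a Benjamini-Hochberg adjustment over each table. In the pathway tables the authors deposited a score, a log2 fold change and p-values.

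Cell numbers were read from the p-values of genes seen in 1 cell, for which the two-sample statistic over cells with unequal variances is 1 in size. The sources do not state how a fold was formed. It was read as a ratio of means taken on the log scale, as Scanpy does, and each gene's level per cluster was solved from its 11 folds such that cell-weighted clusters average to the mean over all cells. This gave a level for all 7780 genes with a log2 mean above -3. These levels lie below arithmetic means (median ratio 0.747), as averaging on the log scale would give. Read as a ratio of arithmetic means instead, the regulators' log2 ratios between clusters 0 to 9 changed by at most 0.019. Marker sums share the deposited mean out by the fold. The recovery was tested on simulated data. Differences in standard deviations between cells come from the deposited p-value and the cell numbers. Gene spans, coordinates and promoters are from RefSeq (GRCm38.p6), matched by symbol. No comparison was tested, since each library is 1 sample and the tables do not separate libraries. All 9 genes were named in every cluster. Up to 6 called genes per list with the largest differences, and the 2 genes most like each regulator, were also eligible. A fold of below -10 was taken as undetected. Python 3.11.15, numpy 2.4.6, pandas 2.3.3 and scipy 1.17.1 were used. The counts of the list of HOX and TALE cofactors are not reported here.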

Additional observations from a re-analysis of the deposited data

How the results depend on the processing

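With a log2 fold threshold of 0.25 in place of 0.5, 9 pairs of a regulator and a cluster were called higher and 17 lower (3 and 7 as reported), and with a threshold of 1 there were 0 and 0; the deposited adjusted p was under 0.05 in both. List genes gave 32 higher and 95 lower calls as reported, 86 and 161 at 0.25, and 12 and 35 at 1. Without the filter on p the list genes gave 87 higher calls. Folds less the cluster median of the 8534 genes at or above the median mean level (a wider set than the 1548 abundant genes) left 3 lower regulator pairs. Folds less the median of genes of like span, an alternative chosen after seeing the data, left 1 higher (Mllt3 in cluster 2) and 3 lower (Mllt3 and Mecom in cluster 0, Mllt3 in cluster 8). Clusters 0 to 5 alone, also chosen afterwards, held 2 lower regulator pairs and 13 higher and 27 lower list calls, because fewer clusters were counted. Centred on those 8534 genes, on genes of like span and on the 1548 abundant genes (the last added after seeing the data), the regulators' median went from -0.44 to -0.18, -0.16 and -0.31 in cluster 6, from 0.06 to 0.17, 0.20 and 0.44 in cluster 7, from -0.0023 to -0.12, -0.14 and -0.14 in cluster 8, and from 0.28 to -0.028, -0.022 and 0.062 in cluster 10. There it changed sign under the former 2 and not under the last. Of 143 recomputed medians 131 moved by less than 0.1, but most of the 143 only left out 1 regulator. Small medians could change sign within that limit. Without Mecom, Meis1, Erg or Runx1 the median of cluster 7 went from 0.06 to -0.01. Without Mecom, Erg, Mllt3 or Lmo2 that of cluster 8 went from -0.0023 to 0.068. Cluster 0 kept its sign but went from -0.16 to -0.07 without Hlf, Mecom, Erg or Mllt3. The cause of these changes was not tested. No paired analysis was possible because each age and feeding group is 1 library and the tables pool them. The values rest on pooled libraries of unknown depth, so a difference between clusters may differ between animals in ways not analysed here, and cluster 10 holds 10 cells.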
